A study of Mus musculus with 12 samples.

Results

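Expression of the sarco/endoplasmic reticulum calcium pumps (SERCA) and of proteins that regulate them was examined by RNA-seq in C2C12GFP cells. The members were chosen by name, with earlier results of these data known, and comprised 8 of the 55536 genes in the count table. They were the pump genes *Atp2a1*, *Atp2a2*, and *Atp2a3*, the inhibitor genes *Sln* and *Pln*, and the genes *Srl*, *Hrc*, and *Trdn*, whose proteins reside in the sarcoplasmic reticulum or its junctions. All 8 were present in the table, and 6 passed the filter on low counts, which *Sln* and *Pln* did not.

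C2C12GFP cells are mouse myoblasts that carry green fluorescent protein and fuse into myotubes in low-serum medium. The cells were differentiated on uncoated plates (control) or on a coat of Collagen I, of fibronectin, or of Geltrex™, a basement membrane extract rich in laminin and collagen IV. Each of the 4 groups had 3 samples, and the comparisons asked whether the coating altered gene expression. The day of RNA collection was not given in the sources used here, and nothing in the labels states that the samples of a group were separate cultures, so the p-values measure the spread between these samples, which may be technical. Total counts on genes were 22520404 to 27351766 per sample.

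SERCA pumps use ATP to return calcium from the cytosol to the sarcoplasmic reticulum, which ends contraction and refills the store. *Atp2a1* encodes the pump of fast-twitch skeletal muscle, *Atp2a2* that of slow-twitch and cardiac muscle with a splice form found in most cells, and *Atp2a3* a pump best known from non-muscle cells. Sarcolipin (*Sln*) and phospholamban (*Pln*) are small membrane proteins that bind the pumps and lower their activity.

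*Atp2a1* (ENSMUSG00000030730) lies on the minus strand at chr7:126445858-126463108 of GRCm38. Its level in CPM (counts scaled to library size after TMM) was 209, 221, and 162 in the 3 control samples, 229, 235, and 202 on Collagen I, 60.6, 43.5, and 54.2 on fibronectin, and 97.6, 90.8, and 85.4 on Geltrex™. The control and Collagen I samples overlapped, every Geltrex™ sample was below them, and every fibronectin sample was lower still. On fibronectin, *Atp2a1* was 3.73-fold lower than in the control (log2 fold change −1.90 ± 0.13 SE, adjusted p = 3.9e-08, edgeR, quasi-likelihood test, adjusted after Benjamini and Hochberg). On Geltrex™ it was 2.16-fold lower (log2 fold change −1.11 ± 0.13 SE, edgeR adjusted p = 5.5e-06). In these bulk samples, fewer cells of a type and less RNA per cell cannot be told apart.

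*Atp2a1* shares 21.9% of its exon bases with *Rabep2* on the opposite strand, and whether counting used the strand was not given in the sources used here, so reads in that stretch are uncertain. *Rabep2* had a mean of 14.7 ± 1.20 CPM in the control, 16.9 ± 1.35 with Collagen I, 10.8 ± 2.08 with fibronectin, and 13.6 ± 1.43 with Geltrex™ (SD, n = 3). Of the annotated transcripts of the 3 pump genes, those of *Atp2a1* and *Atp2a3* had 4 stretches of 50 bases in common, and those of *Atp2a2* had 0 in common with either.

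*Atp2a2* (ENSMUSG00000029467, chr5:122453513-122502225, minus strand) was the pump gene with the most counts in every sample. It reached 1007, 1182, and 959.5 CPM in the control, 1179.6, 1237, and 895 with Collagen I, 745, 654, and 657 with fibronectin, and 706, 667, and 718 with Geltrex™. All fibronectin and Geltrex™ samples lay below all control and Collagen I samples, and they overlapped each other. *Atp2a2* was 1.53-fold lower on fibronectin than in the control (log2 fold change −0.61 ± 0.11 SE, edgeR adjusted p = 0.00080). On Geltrex™ it was 1.51-fold lower (log2 fold change −0.59 ± 0.11 SE, edgeR adjusted p = 0.00085). With the Geltrex™ samples summed into 1, the log2 fold change was −0.58 and the adjusted p was 0.0581 by edgeR. In that setting Geltrex™ has 1 sample and the spread comes from the other groups only, so a lost call there, as in the later uses of this setting, is a result obtained with fewer samples. The counts do not separate its muscle and general splice forms.

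*Atp2a3* (ENSMUSG00000020788, chr11:72961169-72993044, plus strand) had between 28 and 105 counts per sample. Its level was 3.02, 1.83, and 2.17 CPM in the control, 1.43, 1.67, and 2.46 with Collagen I, 1.45, 1.17, and 2.45 with fibronectin, and 4.48, 3.75, and 4.19 with Geltrex™. The Geltrex™ samples stood above all others, and the remaining groups overlapped. *Atp2a3* was 1.77-fold higher on Geltrex™ than in the control (log2 fold change 0.82 ± 0.26 SE, edgeR adjusted p = 0.0234), whereas on fibronectin the log2 fold change from the control was −0.46 ± 0.28 SE (edgeR adjusted p = 0.227). The increase on Geltrex™ was not called without control sample 2 (edgeR adjusted p = 0.0844), control sample 3 (0.0689), Geltrex™ sample 1 (0.0740), or Geltrex™ sample 3 (0.0616), nor with the Geltrex™ samples summed (0.155). Without fibronectin sample 3, the lower level on fibronectin was called (log2 fold change −0.82, edgeR adjusted p = 0.0378). Without control sample 1, the log2 fold change on fibronectin was −0.23. The edgeR adjusted p of this comparison reached up to 0.637 as each sample was left out.

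**Figure D1:**
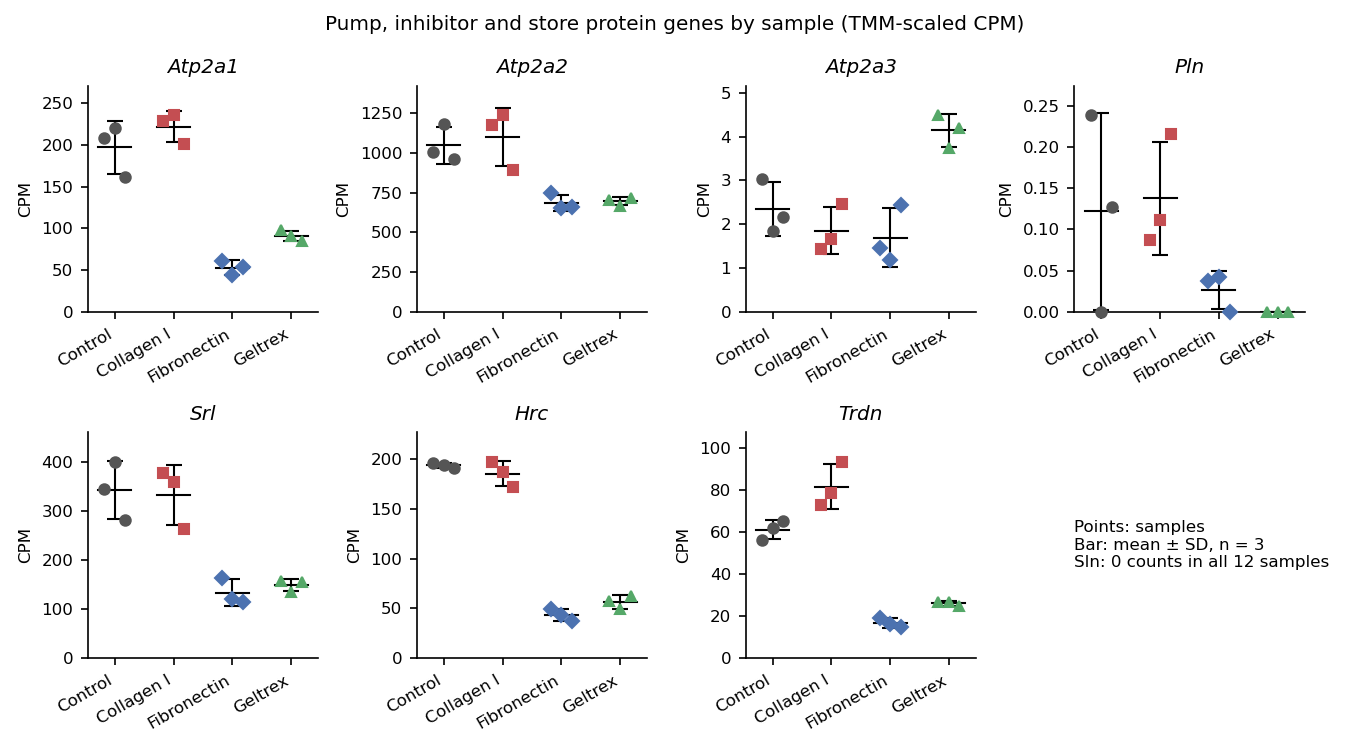
TMM-scaled CPM of 7 genes (vertical axes, from 0) in the 4 groups (horizontal axes). Points are samples and bars show the mean ± SD (n = 3). *Atp2a1*, *Atp2a2*, *Srl*, *Hrc*, and *Trdn* were lower in every fibronectin and Geltrex™ sample than in every control and Collagen I sample, while *Atp2a3* was highest on Geltrex™.

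Levels of different genes were compared per kilobase (kb) of annotated exon. In the control, *Atp2a2* had 173 ± 19.2 CPM per kb, *Atp2a1* 56.7 ± 9.001 CPM per kb, and *Atp2a3* 0.443 ± 0.116 CPM per kb (SD, n = 3). On fibronectin the corresponding levels were 113 ± 8.48, 15.2 ± 2.49, and 0.320 ± 0.127 CPM per kb. On Geltrex™ they were 115 ± 4.35, 26.2 ± 1.77, and 0.784 ± 0.0702 CPM per kb. The order of the pump genes was the same in all 12 samples, but their proportions were not.

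The *Atp2a1* share of the summed pump counts per kb was 26.5%, 24.6%, and 22.7% in the control, 25.4%, 24.95%, and 28.2% on Collagen I, 12.4%, 10.4%, and 12.6% on fibronectin, and 19.4%, 19.1%, and 17.1% on Geltrex™. The fibronectin samples formed the lowest group and the Geltrex™ samples an intermediate one, and neither overlapped another group, whereas control and Collagen I overlapped. The share differed among the 4 groups (exact permutation test of the F statistic over 369600 assignments, p = 0.00026, adjusted p = 0.00078 over 3 ratios). Group means were 24.6% ± 1.91 in the control, 26.2% ± 1.76 on Collagen I, 11.8% ± 1.22 on fibronectin, and 18.5% ± 1.24 on Geltrex™ (SD, n = 3). Between a pair of groups, 3 samples against 3 cannot give an exact p below 0.10, and each pair other than control and Collagen I reached that value.

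*Atp2a2* made up most of the remainder, with mean shares of 75.2% ± 1.94 in the control, 73.7% ± 1.82 on Collagen I, 88.0% ± 1.28 on fibronectin, and 80.9% ± 1.24 on Geltrex™ (SD, n = 3). The *Atp2a3* share was 0.253%, 0.135%, and 0.2004% in the control, 0.104%, 0.117%, and 0.226% on Collagen I, 0.196%, 0.184%, and 0.373% on fibronectin, and 0.586%, 0.520%, and 0.554% on Geltrex™. Every Geltrex™ sample was above every other sample, and the groups differed (exact permutation test, p = 0.00656, adjusted p = 0.00984). The Geltrex™ mean of 0.553% ± 0.0330 compared with 0.196% ± 0.0594 in the control (SD, n = 3), a difference of 0.357 percentage points. The share also depends on the *Atp2a1* and *Atp2a2* counts, which were lower on both coatings, so it does not measure the *Atp2a3* level alone. On fibronectin the mean share was 0.251% ± 0.106, while the mean *Atp2a3* level was 0.320 CPM per kb against 0.443 in the control.

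**Figure D2:**
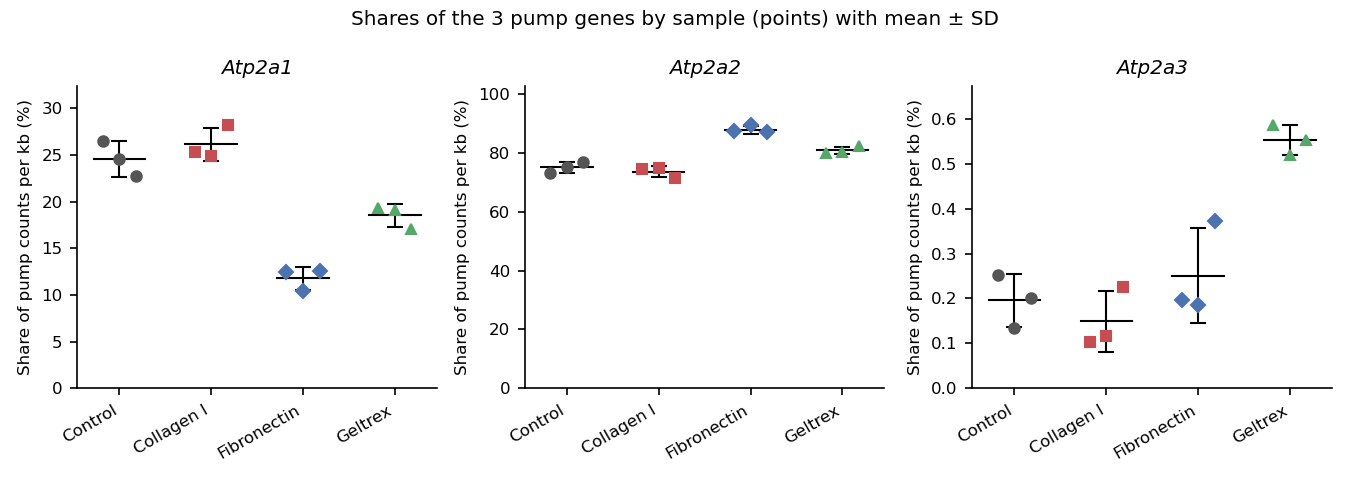
Share of each pump gene in the summed pump counts per kb, in percent (vertical axes, from 0), by group. Points are samples and bars show the mean ± SD (n = 3). The *Atp2a1* share was lowest on fibronectin (10.4% to 12.6%) and intermediate on Geltrex™ (17.1% to 19.4%).

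Marker genes of the myotube and of proliferation differed between the same groups. The summed level of 10 myotube genes was 6685, 7015, and 6125 CPM in the control, 6912, 6713, and 6446 with Collagen I, 2462, 2109.7, and 2152 with fibronectin, and 3119.8, 2867, and 3044 with Geltrex™. The most abundant was *Myh3*, the embryonic myosin heavy chain, and all 10 were lower on fibronectin and on Geltrex™ than in the control by the edgeR test, against 14.7% and 16.6% of all tested genes. The summed level of 7 proliferation genes, led by *Top2a*, was 242, 277, and 299 CPM in the control, 219.7, 211, and 227 with Collagen I, 655, 852, and 716 with fibronectin, and 695, 752, and 745 with Geltrex™. All 7 were higher on fibronectin and on Geltrex™ than in the control, against 17.1% and 16.4% of all tested genes. The part of these differences in the pump and regulator results was not tested.

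The 7 genes of undifferentiated myoblasts, led by *Cdh15*, summed to 499 ± 23.7 CPM in the control, 463 ± 32.5 with Collagen I, 451 ± 20.2 with fibronectin, and 495 ± 11.4 with Geltrex™ (SD, n = 3). Of the 7, edgeR called 1 higher and 1 lower on fibronectin than in the control, against 17.1% and 14.7% of all tested genes. On Geltrex™ it called 0 higher and 1 lower, against 16.4% and 16.6%. With Collagen I it called 0 higher and 1 lower, against 0.2% and 0.917%. Fibroblast genes, led by *Lum*, summed to 133 ± 18.2 CPM in the control, 119.8 ± 17.2 with Collagen I, 94.4 ± 13.6 with fibronectin, and 66.2 ± 1.24 with Geltrex™, and *Tcf21* had 0 counts in every sample. Reads from genes of other cell types were few. Adipocyte genes summed to at most 0.431 CPM in any sample and macrophage genes to at most 1.59 CPM, with no more than 3 counts per sample for *Adipoq*, *Cidec*, *Ptprc*, and *Adgre1*. Endothelial genes summed to at most 3.49 CPM, most of it from *Tek*, with *Cdh5* and *Kdr* at no more than 3 counts per sample. Heart muscle genes summed to at most 5.63 CPM, led by *Myh6*, with *Nppa* at no more than 3 counts per sample and *Myl7* at 0. Of the smooth muscle genes, *Acta2* was abundant at a mean of 996 CPM, while the highest level in any sample was 0.220 CPM for *Myh11* and 0.384 CPM for *Cnn1*.

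**Figure D3:**
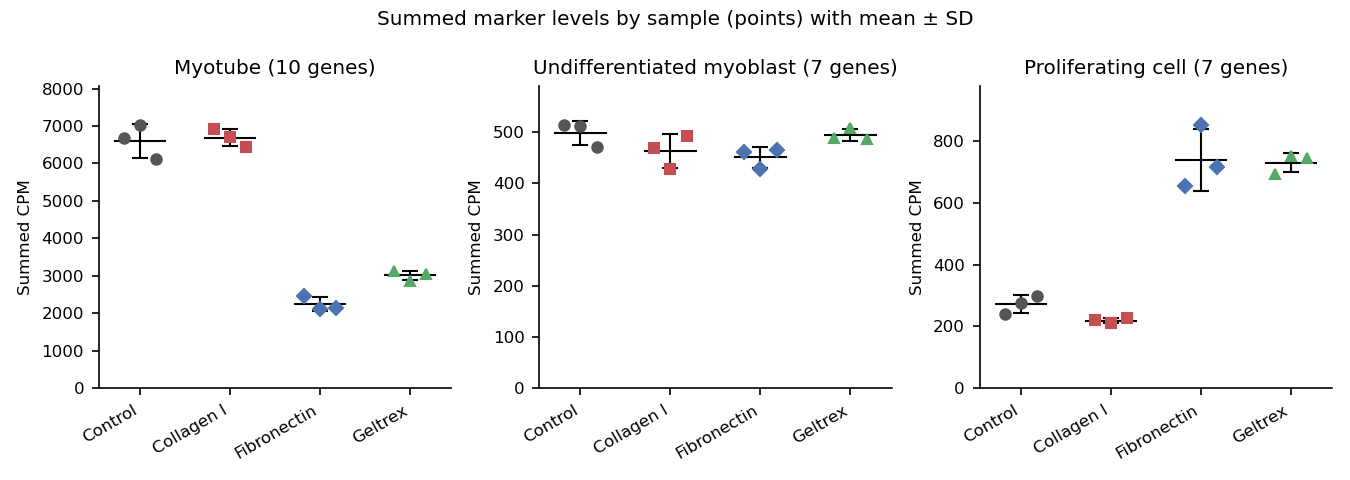
Summed CPM of the myotube, undifferentiated myoblast, and proliferation genes (vertical axes, from 0) by group. Points are samples and bars show the mean ± SD (n = 3). Fibronectin and Geltrex™ samples had 2109.7 to 3119.8 CPM of myotube genes, below the other groups, and 655 to 852 CPM of proliferation genes, above them.

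Transcripts of *Sln* and *Pln* were not detected or scarce. *Sln* (ENSMUSG00000042045, chr9:53850164-53854560, plus strand) had 0 counts in all 12 samples. A count of 0 allows up to 3 counts, which corresponds to 0.110 to 0.135 TMM-scaled CPM per sample, or 0.0312% to 0.0792% of the pump counts per kb, and such limits cover counting error only. *Sln* was thus not detectable at this depth, and its ratio to the pumps could not be tested.

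*Pln* (ENSMUSG00000038583, chr10:53337667-53345987, plus strand) had 6, 0, and 3 counts in the control, 2, 3, and 5 on Collagen I, 1, 1, and 0 on fibronectin, and 0 in each Geltrex™ sample. The Collagen I samples all had reads, the Geltrex™ samples had none, the control overlapped all other groups, and fibronectin lay below Collagen I and overlapped Geltrex™. The planned log2 ratio of *Pln* to summed pump counts per kb had 0.5 added to the *Pln* count, so in the 5 samples with 0 counts, among them all Geltrex™ samples, it reflects the added value and the pump counts only. Its exact permutation p was 0.309, and 0.0188 without control sample 2, and neither value was used to judge *Pln*. Since 59.6% of the *Pln* exon bases lie opposite *Gm47644* and 5.11% opposite *Cep85l*, the origin of these few reads is uncertain.

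The remaining members act inside the calcium store or at its junctions. *Srl* encodes sarcalumenin, a luminal calcium-binding glycoprotein that stabilizes the pumps. *Hrc* encodes the histidine-rich calcium-binding protein, which binds the pump and triadin from the luminal side, and *Trdn* encodes triadin, which links calsequestrin to the ryanodine receptor.

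*Srl* (ENSMUSG00000022519, chr16:4480216-4541816, minus strand) reached 345, 400.4, and 283 CPM in the control, 378, 359, and 263 with Collagen I, 165, 121, and 114 with fibronectin, and 157, 136, and 155 with Geltrex™. Fibronectin and Geltrex™ samples overlapped each other and were all below the control and Collagen I samples, which also overlapped. *Srl* was 2.57-fold lower on fibronectin than in the control (log2 fold change −1.36 ± 0.16 SE, edgeR adjusted p = 9.7e-06). On Geltrex™ it was 2.30-fold lower (log2 fold change −1.20 ± 0.16 SE, edgeR adjusted p = 2.4e-05).

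*Hrc* (ENSMUSG00000038239, chr7:45335290-45338974, plus strand) had 196, 194, and 191 CPM in the control, 197, 187, and 172 with Collagen I, 49.2, 43.0, and 37.5 with fibronectin, and 57.7, 48.9, and 62.9 with Geltrex™. The control samples lay close together, and the fibronectin and Geltrex™ samples were far below them and overlapped each other. *Hrc* had the largest decrease from the control of the 6 tested members on both coatings, 4.48-fold on fibronectin (log2 fold change −2.16 ± 0.11 SE, edgeR adjusted p = 2.3e-09) and 3.43-fold on Geltrex™ (−1.78 ± 0.11 SE, edgeR adjusted p = 9.4e-09).

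*Trdn* (ENSMUSG00000019787, chr10:33080554-33476709, plus strand) had 56.4, 61.9, and 65.3 CPM in the control, 73.1, 78.7, and 93.6 with Collagen I, 19.2, 16.3, and 14.8 with fibronectin, and 26.6, 26.8, and 24.9 with Geltrex™. No pair of groups overlapped for *Trdn*, with Collagen I highest, followed by the control, Geltrex™, and fibronectin. *Trdn* was 3.65-fold lower on fibronectin than in the control (log2 fold change −1.87 ± 0.11 SE, edgeR adjusted p = 1.3e-08) and 2.34-fold lower on Geltrex™ (−1.23 ± 0.11 SE, edgeR adjusted p = 4.3e-07). On Collagen I it was 1.34-fold higher than in the control (log2 fold change 0.42 ± 0.10 SE), with an unadjusted p of 0.00103 and an edgeR adjusted p of 0.0615, above the threshold of 0.05. The difference passed with DESeq2 (adjusted p = 0.0168), with no filter on low counts (edgeR adjusted p = 0.00445), and without fibronectin sample 3 (edgeR adjusted p = 0.0450), and edgeR adjusted p ranged from 0.0450 to 0.175 as each sample was left out.

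Per kb of exon, the control levels were 75.5 ± 0.986 CPM for *Hrc*, 64.4 ± 11.1 CPM for *Srl*, and 6.55 ± 0.478 CPM for *Trdn* (SD, n = 3). On fibronectin they were 16.9 ± 2.30, 25.01 ± 5.14, and 1.79 ± 0.240 CPM per kb, so that *Srl* was above *Hrc*. On Geltrex™ they were 22.0 ± 2.74, 28.03 ± 2.21, and 2.79 ± 0.109 CPM per kb. The *Trdn* value depends on which of its 8 annotated transcripts were present, since its merged exons span 9352 bases and its longest transcript 4514.

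Promoter sequences from RefSeq (GRCm38.p6, 250 bases before to 50 after the start) were found for 4 of the 8 members, *Atp2a1*, *Atp2a3*, *Pln*, and *Hrc*, and none was listed for *Atp2a2*, *Sln*, *Srl*, and *Trdn*. Those of *Atp2a1* (chr7:126463024-126463323, minus strand) and *Hrc* (chr7:45335019-45335318, plus strand) are shown because both genes were called lower than in the control on fibronectin and Geltrex™. That of *Atp2a3* (chr11:72960919-72961218, plus strand) is shown because, with all samples, it was called lower than in the control on neither. Capitals mark matches to the E-box letters CANNTG, bound by myogenic factors among others.
*Atp2a1*: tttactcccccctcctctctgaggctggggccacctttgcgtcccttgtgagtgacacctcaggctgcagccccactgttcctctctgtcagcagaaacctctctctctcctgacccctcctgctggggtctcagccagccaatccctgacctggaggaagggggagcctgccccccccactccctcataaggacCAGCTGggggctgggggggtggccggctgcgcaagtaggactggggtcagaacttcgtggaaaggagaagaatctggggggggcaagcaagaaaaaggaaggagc
*Hrc*: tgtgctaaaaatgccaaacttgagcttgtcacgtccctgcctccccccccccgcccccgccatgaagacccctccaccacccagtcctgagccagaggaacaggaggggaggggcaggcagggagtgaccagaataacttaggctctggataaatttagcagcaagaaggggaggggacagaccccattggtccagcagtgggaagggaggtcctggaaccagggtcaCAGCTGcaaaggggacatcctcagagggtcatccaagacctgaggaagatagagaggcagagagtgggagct
*Atp2a3*: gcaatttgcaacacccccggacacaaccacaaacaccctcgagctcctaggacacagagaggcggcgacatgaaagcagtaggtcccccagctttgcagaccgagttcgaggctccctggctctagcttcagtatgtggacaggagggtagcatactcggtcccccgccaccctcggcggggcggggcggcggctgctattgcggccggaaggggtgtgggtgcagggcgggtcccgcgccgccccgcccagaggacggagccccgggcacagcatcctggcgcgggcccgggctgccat
*Atp2a1* and *Hrc* each had 1 match, with the letters CAGCTG, starting 55 and 22 bases before the start, and *Atp2a3* had 0. *Pln*, whose promoter is not shown, had 2 matches, of which 1 was CAGCTG. Of 32851 RefSeq promoters of the same length, 72.3% held CANNTG and 16.3% held CAGCTG, which is a case of CANNTG, and both read the same on either strand. CATTCC, searched on both strands, the MEF2 motif, and the CArG box had 0 matches in the 4 promoters and were present in 14.7%, 3.19%, and 1.63% of all promoters. A match is a description of the letters and not a binding site.

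The 6 comparisons share samples, so they are given side by side. A gene was called at an edgeR adjusted p of at most 0.05. Between Collagen I and the control, edgeR called 0 of the 6 tested members, while it called 0.2% of the 14499 tested genes higher and 0.917% lower on Collagen I. At an unadjusted p under 0.05 there was 1 member, *Trdn*, and DESeq2 also called 1. The log2 fold changes of the others were 0.17 ± 0.12 SE for *Atp2a1*, 0.07 ± 0.11 for *Atp2a2*, −0.34 ± 0.28 for *Atp2a3*, −0.04 ± 0.15 for *Srl*, and −0.06 ± 0.10 for *Hrc*.

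Between fibronectin and the control, 5 of the 6 tested members were lower on fibronectin, against 14.7% of all tested genes, and 0 were higher, against 17.1%, by edgeR and also by DESeq2. The exception was *Atp2a3*, and the median log2 fold change of the 6 members was −1.62, compared with −0.02 over all tested genes. Between Geltrex™ and the control, 5 of the 6 were lower on Geltrex™, against 16.6% of all genes, and *Atp2a3* was higher, against 16.4% of all genes. The median over the members was −1.16 and over all genes −0.01.

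Compared directly, 5 of the 6 were higher on Collagen I than on fibronectin, against 22.1% of all genes, and 0 were lower, against 22.9%, with *Atp2a3* at a log2 fold change of 0.13 ± 0.29 SE (edgeR adjusted p = 0.748). *Trdn* differed most, 4.87-fold (log2 fold change 2.29 ± 0.11 SE, edgeR adjusted p = 1.5e-09), followed by *Hrc* at 4.28-fold and *Atp2a1* at 4.21-fold. Relative to Geltrex™, 5 were higher on Collagen I, against 18.2% of all genes, and *Atp2a3* was lower, against 19.0%. *Hrc* was 3.28-fold higher on Collagen I than on Geltrex™, *Trdn* 3.13-fold, and *Atp2a1* 2.43-fold, and *Atp2a3* was 2.24-fold lower (log2 fold change −1.16 ± 0.27 SE, edgeR adjusted p = 0.0033).

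Fibronectin and Geltrex™ also differed from each other. By edgeR, 4 of the 6 members were lower on fibronectin, against 9.06% of all genes, and 0 were higher, against 10.3%. These were *Atp2a3* (log2 fold change −1.29 ± 0.27 SE, adjusted p = 0.0032), *Atp2a1* (−0.79 ± 0.13 SE, adjusted p = 0.00039), *Trdn* (−0.64 ± 0.11 SE, adjusted p = 0.00081), and *Hrc* (−0.38 ± 0.11 SE, adjusted p = 0.0180). *Atp2a2* (−0.02 ± 0.11 SE) and *Srl* (−0.16 ± 0.16 SE) were not called. The call for *Hrc* was lost without fibronectin sample 2 (edgeR adjusted p = 0.0556), fibronectin sample 3 (0.0631), Geltrex™ sample 1 (0.0679), or Geltrex™ sample 3 (0.105). With the Geltrex™ samples summed, *Hrc* (0.194) and *Atp2a3* (0.0608) were not called.

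**Figure D4:**
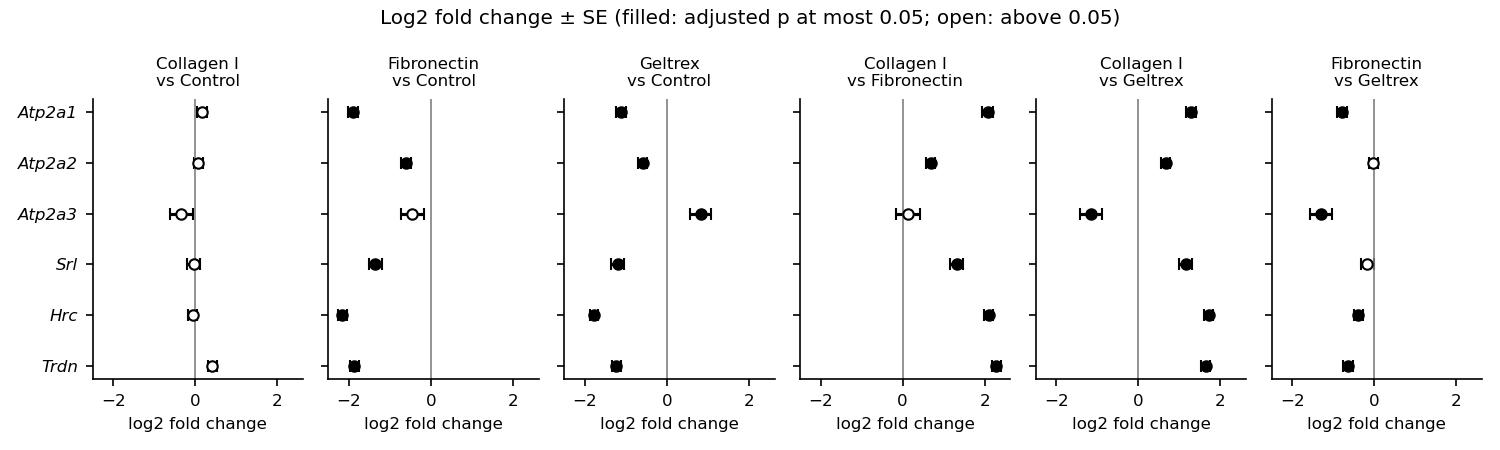
Log2 fold change of the first group relative to the second (horizontal axes) with its SE for the 6 tested members in the 6 comparisons. Filled points have an edgeR adjusted p of at most 0.05 and open points do not. In the comparisons of fibronectin and of Geltrex™ with the control, *Hrc* was the lowest point, at −2.16 and −1.78.

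For each tested member, the 3 genes with the nearest profile were found among tested genes with a mean of at least 1 CPM, by the root mean square (RMS) difference of centered log2 CPM over the 12 samples. Nearest to *Atp2a1* were *Myl1*, a fast myosin light chain (RMS difference 0.10), *Acta1*, skeletal muscle actin (0.11), and *Bcam* (0.11), where the RMS of the *Atp2a1* profile itself was 0.86. Nearest to *Atp2a2* were *Gpr155* (0.07), *Gnpat* (0.09), and *Npnt* (0.10), with 0.34 for *Atp2a2* itself. *Atp2a3* had more distant neighbours, *Ccdc85b* (0.18), *Arc* (0.20), and *Plk3* (0.23), with 0.59 for its own profile. With a mean of only 2.51 CPM for *Atp2a3*, counting error enters these differences, and its part was not tested.

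Neighbours of the other tested members were found in the same way. *Hrc* was nearest to *Myh3* (RMS difference 0.10), *Tnnt3*, fast troponin T (0.12), and *Ablim3* (0.14), and *Trdn* to *Tnni2*, fast troponin I (0.17), *Tnnt3* (0.20), and *Lmod3* (0.21). *Srl* was nearest to *Ryr1*, the calcium release channel of the skeletal muscle store (0.09), *Dysf* (0.12), and *Trim55* (0.12). The RMS of the profiles themselves was 0.99 for *Hrc*, 0.93 for *Trdn*, and 0.66 for *Srl*.

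Further small regulators and partners of the pumps formed a list of 6 genes, of which 5 were tested. Myoregulin (*Mrln*), another-regulin (*1810037I17Rik*), and endoregulin (*Smim6*) are inhibitory micropeptides, and *Gm34302* (*Strit1*) encodes DWORF, a micropeptide that counters the inhibitors. *Gm34302* was not tested and had at most 3 counts in any sample. *Mrln* had 58, 40, and 29 counts in the control, 45, 71, and 55 on Collagen I, 22, 10, and 15 on fibronectin, and 19, 25, and 24 on Geltrex™. All fibronectin and Geltrex™ samples were below the control and Collagen I samples. *Mrln* was lower on fibronectin than in the control (log2 fold change −1.44 ± 0.31 SE, edgeR adjusted p = 0.0025). On Geltrex™ the log2 fold change was −0.78 ± 0.30 SE (edgeR adjusted p = 0.0555), which passed without control sample 3 (edgeR adjusted p = 0.0344) and with a filter of at least 10 counts in every sample (0.0418). As each sample was left out, this log2 fold change ranged from −0.95 without control sample 3 to −0.47 without control sample 1. The edgeR adjusted p then reached up to 0.279.

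*1810037I17Rik* was the inhibitor with the highest level after scaling, with means of 43.2 ± 3.73 CPM in the control, 46.3 ± 5.52 with Collagen I, 43.7 ± 4.71 with fibronectin, and 42.4 ± 1.69 with Geltrex™ (SD, n = 3). Its groups all overlapped, and its log2 fold changes from the control were 0.10 ± 0.10 SE on Collagen I, 0.02 ± 0.10 on fibronectin, and −0.03 ± 0.10 on Geltrex™, with edgeR adjusted p from 0.675 to 0.923. *Smim6* had between 0 and 31 counts per sample and was lower on fibronectin than in the control (log2 fold change −1.68 ± 0.57 SE, edgeR adjusted p = 0.0336). That call was lost without control sample 1, 2, or 3 or fibronectin sample 2 or 3 (edgeR adjusted p 0.0667 to 0.0931), with only the groups compared (0.0680), and with the Geltrex™ samples summed (0.0710). Its size rested on single libraries, with a log2 fold change of −2.89 without fibronectin sample 1 and −1.14 without fibronectin sample 2. On Geltrex™, the *Smim6* log2 fold change from the control was −1.20 ± 0.54 SE and was not called (edgeR adjusted p = 0.105), but it passed with only the groups compared (0.0260) and without fibronectin sample 2 (0.0402).

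*Hax1*, whose product binds phospholamban, and *S100a1*, whose product is a calcium sensor that raises pump activity, were the remaining tested genes of the list. *Hax1* had a mean of 71.3 ± 2.79 CPM in the control, 77.2 ± 5.32 with Collagen I, 61.4 ± 1.67 with fibronectin, and 60.1 ± 3.32 with Geltrex™ (SD, n = 3). *S100a1* had 43.7 ± 8.55, 47.8 ± 6.58, 34.0 ± 4.02, and 31.6 ± 0.971 CPM in the same order. The *Hax1* samples on fibronectin and Geltrex™ were all below those of the control, and so were the *S100a1* samples on Geltrex™, whereas on fibronectin *S100a1* overlapped the control. Both were lower than in the control on fibronectin (log2 fold change −0.22 ± 0.08 SE for *Hax1* and −0.36 ± 0.13 SE for *S100a1*, edgeR adjusted p = 0.0406 and 0.0453) and on Geltrex™ (−0.25 ± 0.08 SE and −0.46 ± 0.13 SE, edgeR adjusted p = 0.0207 and 0.0122).

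The calls for *Hax1* and *S100a1* depended on single libraries and on the settings. On fibronectin, *Hax1* was lost without control sample 1 or 3, Collagen I sample 1, or any fibronectin or Geltrex™ sample (edgeR adjusted p 0.0518 to 0.135). It was also lost with the replicate block (0.0533), with no filter on low counts (0.178), with only the groups compared (0.0575), and with the Geltrex™ samples summed (0.104). The *S100a1* call on fibronectin was lost without control sample 3, Collagen I sample 1, fibronectin sample 1 or 2, or any Geltrex™ sample (edgeR adjusted p 0.0584 to 0.250), with only the groups compared (0.0648), and with the Geltrex™ samples summed (0.0921). On Geltrex™, *Hax1* was not called without control sample 1 or 3 or Geltrex™ sample 2 or 3 (edgeR adjusted p 0.0513 to 0.113), and *S100a1* not without control sample 3 (0.0776). *Hax1* was not called on Geltrex™ with no filter (0.0956) either, and neither gene was with the Geltrex™ samples summed (0.253 for *Hax1* and 0.172 for *S100a1*). Without control sample 3, the *S100a1* log2 fold change was −0.19 on fibronectin and −0.29 on Geltrex™, compared with −0.36 and −0.46 with all samples.

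The list of pump partners had 4 of 5 tested genes lower on fibronectin (median log2 fold change −0.36), against 14.7% of all tested genes (median −0.02). This count rested on the choice of samples. It was 1 without control sample 3 or fibronectin sample 2, 2 without control sample 1, Collagen I sample 1, fibronectin sample 1 or 3, or any Geltrex™ sample, and 1 with only the groups compared or with the Geltrex™ samples summed. With a fold change of at least 2 it was 2. For this and later counts at that fold change, the share of all tested genes was not computed. On Geltrex™, 2 of 5 were lower (median −0.46), against 16.6% of all tested genes (median −0.01). That count was 1 without control sample 1 or 3 or Geltrex™ sample 2 or 3 and with no filter on low counts. It was 3 without fibronectin sample 2 and 0 with a fold change of at least 2. *Mrln* gained a call with a filter of at least 10 counts in every sample, and *Smim6* with only the groups compared.

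Compared with Collagen I, 4 of 5 tested pump partners were lower on fibronectin, against 22.1% of all tested genes, and 4 of 5 on Geltrex™, against 18.2%. With a fold change of at least 2, each count was 2. On Geltrex™, *Smim6* was not called against Collagen I without Geltrex™ sample 1 (edgeR adjusted p = 0.0617). With the Geltrex™ samples summed, none of the 4 was called against Collagen I (edgeR adjusted p = 0.0558 for *Mrln*, 0.141 for *Smim6*, 0.0784 for *Hax1*, and 0.0740 for *S100a1*). With edgeR, 0 of 5 were called between Collagen I and the control or between fibronectin and Geltrex™, with 0 at an unadjusted p under 0.05 and 0 by DESeq2. Of all tested genes, edgeR called 0.2% higher and 0.917% lower between Collagen I and the control, and 10.3% higher and 9.06% lower between fibronectin and Geltrex™.

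Genes of calcium storage and release in the sarcoplasmic reticulum formed a list of 19, of which 18 were tested. On fibronectin, 13 of the 18 were lower than in the control and 1 was higher (median log2 fold change −1.17). Of all tested genes, 14.7% were lower and 17.1% higher (median −0.02). On Geltrex™, 11 were lower and 1 higher (median −0.68), against 16.6% and 16.4% of all tested genes (median −0.01), and these 12 calls fell to 7 with the Geltrex™ samples summed and to 6 with a fold change of at least 2. The gene higher on both coatings was *Asph*, whose locus also encodes the junctional protein junctin, named here after its values were seen (log2 fold change 0.41 ± 0.11 SE on each, edgeR adjusted p = 0.0094 and 0.0086), and 14.3% of its exon bases lie opposite *Clvs1*. Its calls were not followed individually under the alternatives. With Collagen I, 13 genes exceeded their fibronectin level and 12 their Geltrex™ level, with 1 lower each time. Of all tested genes, 22.1% and 18.2% were higher with Collagen I, and 22.9% and 19.0% lower. The 13 calls against Geltrex™ fell to 8 with its samples summed and to 7 with a fold change of at least 2. Between fibronectin and Geltrex™, 7 were lower on fibronectin and 0 higher, against 9.06% and 10.3% of all tested genes. All 7 calls were lost with the Geltrex™ samples summed and with a fold change of at least 2, and the count was 2 without fibronectin sample 2 and 4 without Geltrex™ sample 1. Between Collagen I and the control, 0 of the 18 were called by edgeR or DESeq2. Of all tested genes, edgeR called 0.2% higher and 0.917% lower on Collagen I. In the list, 1 gene had an unadjusted p under 0.05, and 1 was called with no filter on low counts (*Jsrp1*, edgeR adjusted p = 0.0470).

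Within this list, *Casq2*, the calsequestrin of heart and slow muscle, had a mean of 1022 ± 50.04 CPM in the control, 857 ± 166 with Collagen I, 309 ± 20.7 with fibronectin, and 374 ± 25.2 with Geltrex™ (SD, n = 3). *Casq1*, the fast muscle calsequestrin, had 6.46 ± 0.322, 5.19 ± 1.94, 1.13 ± 0.220, and 1.44 ± 0.261 CPM in the same order. For both, every fibronectin and Geltrex™ sample lay below every control and Collagen I sample. *Casq2* was lower than in the control on fibronectin (log2 fold change −1.73 ± 0.12 SE, edgeR adjusted p = 4.4e-08) and on Geltrex™ (−1.45 ± 0.12 SE, edgeR adjusted p = 1.9e-07). *Casq1* was also lower on fibronectin (−2.51 ± 0.26 SE, edgeR adjusted p = 3.2e-06) and on Geltrex™ (−2.17 ± 0.25 SE, edgeR adjusted p = 8.2e-06).

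*Ryr1* had a mean of 292 ± 71.6 CPM in the control, 283 ± 32.0 with Collagen I, 114 ± 24.7 with fibronectin, and 134 ± 15.8 with Geltrex™ (SD, n = 3), with log2 fold changes from the control of −1.35 ± 0.17 SE on fibronectin and −1.12 ± 0.17 SE on Geltrex™ (edgeR adjusted p = 1.8e-05 and 8.0e-05). *Jsrp1*, which encodes a junctional protein, and *Tmem38a*, which encodes a potassium channel of the store membrane, were higher on Collagen I than on fibronectin by log2 fold changes of 1.78 ± 0.17 SE and 1.75 ± 0.10 SE (edgeR adjusted p = 1.3e-06 and 7.7e-09). The myotube genes, which also differed between these groups, were given above, and their part in these values was not tested.

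Genes of calcium removal and entry outside the store pumps, 24 in number with 18 tested, did not shift in a common direction. On fibronectin, 6 were higher and 7 lower than in the control (median log2 fold change 0.03), against 17.1% and 14.7% of all tested genes (median −0.02), and without control sample 1 the called genes numbered 8 in place of 13. On Geltrex™, 6 were higher and 5 lower (median −0.01), against 16.4% and 16.6% of all tested genes (median −0.01), and these 11 calls fell to 5 with the Geltrex™ samples summed. None of the calls on either coating had a fold change of at least 2. *Atp2b4*, a plasma membrane calcium pump, had a mean of 140.2 ± 21.7 CPM in the control, 132 ± 11.6 with Collagen I, 219 ± 8.12 with fibronectin, and 267 ± 5.90 with Geltrex™ (SD, n = 3). It was higher than in the control on fibronectin (log2 fold change 0.64 ± 0.10 SE, edgeR adjusted p = 0.00016) and on Geltrex™ (0.93 ± 0.10 SE, edgeR adjusted p = 3.4e-06). The mitochondrial exchanger gene *Slc8b1* and the store-operated channel gene *Orai1* were higher on Collagen I than on fibronectin (log2 fold change 0.79 ± 0.14 SE and 0.73 ± 0.16 SE, edgeR adjusted p = 0.00040 and 0.0020). Between Collagen I and the control, 1 gene was called, higher on Collagen I, against 0.2% of all tested genes. It was *Itpr2*, an inositol trisphosphate receptor, named after its values were seen (log2 fold change 0.48 ± 0.09 SE, edgeR adjusted p = 0.0171), and no gene of the list was called with only the groups compared, with the Geltrex™ samples summed, or with a fold change of at least 2. The same held without control sample 1 or 2 or Collagen I sample 1 or 2.

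Among 11 kinases, phosphatases, and related genes that act on pump regulators, 10 were tested. On fibronectin, 2 were higher and 4 lower than in the control (median log2 fold change 0.02), against 17.1% and 14.7% of all tested genes (median −0.02). On Geltrex™, 2 were higher and 3 lower (median 0.06), against 16.4% and 16.6% (median −0.01). With a fold change of at least 2, the called genes numbered 3 on fibronectin and 2 on Geltrex™. The shares above are without that fold change and are not a background for these counts. *Ppp1r3a*, a glycogen-targeting subunit of protein phosphatase 1 in muscle, had a mean of 2.32 ± 0.870 CPM in the control, 3.08 ± 1.22 with Collagen I, 0.258 ± 0.0982 with fibronectin, and 0.486 ± 0.166 with Geltrex™ (SD, n = 3). The calcium/calmodulin-dependent kinase genes *Camk2b* and *Camk2a* were lower than in the control on fibronectin (log2 fold change −1.99 ± 0.19 SE and −1.28 ± 0.14 SE, edgeR adjusted p = 1.6e-06 and 4.5e-06) and on Geltrex™ (−1.81 ± 0.19 SE and −0.82 ± 0.14 SE, edgeR adjusted p = 3.0e-06 and 0.00021). In the control, *Camk2b* had a mean of 12.3 ± 1.54 CPM and *Camk2a* 44.7 ± 6.73 CPM (SD, n = 3). *Camk2d* and *Camk2g* of the same family had more counts and are given after their values were seen. *Camk2d* had a mean of 124 ± 10.6 CPM in the control, 147 ± 13.2 with fibronectin, and 140 ± 0.578 with Geltrex™. *Camk2g* had 109 ± 6.20, 111 ± 3.05, and 133 ± 2.68 CPM in the same order. Between Collagen I and the control, 0 of the 10 were called by edgeR or DESeq2, and 1 had an unadjusted p under 0.05. Of all tested genes, edgeR called 0.2% higher and 0.917% lower on Collagen I.

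**Figure D5:**
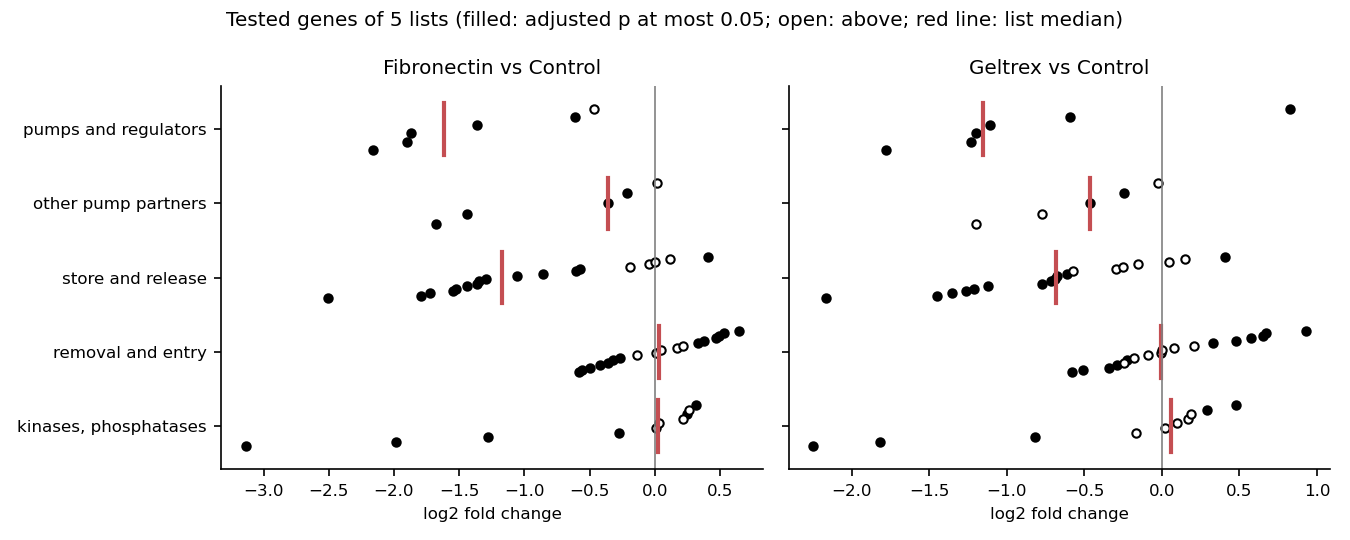
Log2 fold changes (horizontal axes) of the tested genes of 5 lists, with the control as reference, for fibronectin and Geltrex™. Filled points have an edgeR adjusted p of at most 0.05, open points do not, and the red line is the list's median. The medians of the pumps and regulators were −1.62 and −1.16, and those of calcium removal and entry 0.03 and −0.01.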

How the data were processed

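RNA-seq of 12 samples was used. The authors used Trimmomatic, HISAT2, and featureCounts and deposited raw read counts per gene without normalization. Genome build, annotation, strand, and multiple mapping were not given in the sources used here. All 55536 identifiers matched GENCODE M21 (GRCm38), which gave names, positions, exon lengths, and overlaps, and overlapping genes on the opposite strand cannot be told apart without strand.

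Genes were filtered with edgeR 4.0.16's filterByExpr in R 4.3.3 (minimum count 10, minimum total 15), which left 14499. Counts were scaled by TMM and fitted in 1 quasi-likelihood model of the 4 groups (8 residual degrees of freedom), with Benjamini-Hochberg adjustment across the tested genes. Each SE was the absolute log2 fold change over √F. Shares and ratios were tested by a two-sided exact permutation of sample labels, adjusted over 3 ratios because *Sln* gave none. Profiles used log2 CPM with a prior count of 2.

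Samples within each group differed by more than sampling noise (chi-square per degree of freedom 2.18 to 64.6, lowest among the Geltrex™ samples), and each was kept. Low counts, as for *Pln* and *Smim6*, limit precision. The members and lists were chosen with earlier results of these data known. From the lists, *Casq1*, *Casq2*, *Ryr1*, all pump partners, and the 3 called genes with the largest fold change between Collagen I and fibronectin per list and a mean of at least 1 CPM were named. Alternatives were DESeq2 1.42.0, RLE scaling, other filters, only the groups compared, a replicate block, a fold change of at least 2, summed Geltrex™ samples, other gene lengths, and leaving out each sample. The procedure was tested on simulated data.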

Additional observations from a re-analysis of the deposited data

How the results depend on the processing

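Each of the 36 log2 fold changes of the tested members was recomputed with DESeq2, RLE scaling, each other filter, only the groups compared, the replicate block, the Geltrex™ samples summed, and each sample left out, giving 684 values, of which 668 stayed on the same side of the threshold, 12 lost the call, 4 gained it, and 0 reversed. The fold change of at least 2 was applied to the counts of called members and listed genes only. No share of all tested genes at that fold change was computed. Between Collagen I and the control, the count of called members was 0, and it was 1 with DESeq2 and 1 with no filter on low counts; leaving out each sample in turn gave 0 to 1. Between fibronectin and Geltrex™, the count was 4, and it was 2 with the Geltrex™ samples summed, which leaves Geltrex™ with 1 sample and takes the spread from the other groups, 1 with a fold change of at least 2, and 3 to 4 with a sample left out. The cause was not tested for the others. In the other comparisons the count stayed within 1.5 times its value, with a move of exactly 1.5 times included. At a fold change of at least 2, each lost *Atp2a2* (1.51-fold to 1.61-fold), and Geltrex™ against the control also lost *Atp2a3* (1.77-fold). Calls lost with the Geltrex™ samples summed were given with each gene above. Leaving out a sample gave 5 to 6 on fibronectin and on Geltrex™ against the control. It gave 5 for Collagen I against fibronectin and 6 for Collagen I against Geltrex™. The exact permutation p of the *Atp2a1* share ranged from 0.00013 to 0.00052 and that of the *Atp2a3* share from 0.00383 to 0.0247 with a sample left out, and that of *Pln* per pump from 0.0188 to 0.482, past 0.05 only without control sample 2, though 5 of its 12 values rest on the added 0.5.

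Same-numbered samples did not deviate together in every pair, so the numbers were not taken to pair the samples. With the replicate number as a replicate block, the counts of called members were 0, 5, 6, 5, 6, and 4 in the 6 comparisons, the values without it, and the largest move of a member's log2 fold change was 0.0323. Among the other named genes, the *Hax1* call on fibronectin against the control was lost (edgeR adjusted p = 0.0533). With permutation within replicate numbers, p was 0.00521 for the *Atp2a1* share, 0.0156 for the *Atp2a3* share, and 0.378 for *Pln* per pump.

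The number of all genes called between Collagen I and the control varied most, from 162 to 462 with DESeq2, 581 with no filter, and 39 with only the groups compared. With the Geltrex™ samples summed, it fell from 4786 to 2079 for Geltrex™ against the control and from 2805 to 703 for fibronectin against Geltrex™. Counts over the lists moved by more than 1.5 times in 74 of 600 values. For pump partners, the count fell to 0 with the Geltrex™ samples summed, from 2 against the control and from 4 against Collagen I. Their count on fibronectin against the control fell from 4 to 1 with only the groups compared. It ranged from 1 to 4 with a sample left out, and 9 of the 12 samples moved it by more than 1.5 times. Of 1810 values for the other named genes, 58 lost a call, 15 gained one, and 0 reversed. Medians over all genes moved by less than 0.1 under every scaling. With 28 to 105 counts of *Atp2a3* per sample and at most 6 of *Pln*, small differences were not detectable.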
